A study of Mus musculus with 12 samples.

Results

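The mouse genome holds 2 copies of the miR-103 gene and 1 of miR-107. Their precursors, mmu-mir-103-1, mmu-mir-103-2 and mmu-mir-107, were taken by name from the deposited tables and are 3 of the 1532 precursors seen there. They drew 249195 of the 62878432 counted reads, as 540 distinct sequences. Of these reads, 249156 lay on the 3p arm and 39 on the 5p arm.

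The study sequenced small RNAs from the retina of db/db mice on a KsJ background, whose leptin receptor gene is mutated and which grow obese and diabetic. There were 6 libraries labelled model and 6 labelled Keluoxin, a capsule of traditional Chinese medicine. The comparison asks how the treatment went with the retinal miRNA profile. All 12 libraries carry db/db, so no non-diabetic retina enters any value here, and the sources used here give no age, sex, dose or duration. The tissue and source labels say retina, but the protocol of RNA extraction starts from exosomes. Whether each library came from its own mouse is not stated, so the spread behind every p-value is that between these samples and may be technical in part.

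MicroRNAs guide Argonaute proteins to messenger RNAs, chiefly by pairing of the seed, bases 2 to 8, and lower their output. miR-103 and miR-107 are known as regulators of insulin sensitivity in liver and adipose tissue, where they target caveolin-1, a protein that helps to stabilise the insulin receptor. All 3 genes lie in introns of pantothenate kinase genes, whose products start the synthesis of coenzyme A.

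The mature 3p sequences are shown because a single base separates the miRNAs and decides which reads can be told apart. They and the hairpins come from RefSeq (GRCm38.p6), where the 3 hairpins equal the deposited precursors, and capitals mark the seed.
mmu-miR-103-3p: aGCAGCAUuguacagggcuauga
mmu-miR-107-3p: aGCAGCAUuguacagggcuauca
Counted from the 5′ end, miR-107-3p differs from miR-103-3p by G22C alone. The seed is the same in both. Reads that end before base 22, or that carry a base other than G or C there, mostly match both miRNAs.

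The 5p partners also differ by single bases, and are shown because they are the rarely read side of the same hairpins. The 5p seeds, in capitals, are shared by all 3.
mmu-miR-103-1-5p: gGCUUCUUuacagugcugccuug
mmu-miR-103-2-5p: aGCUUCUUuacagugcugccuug
mmu-miR-107-5p: aGCUUCUUuacaguguugccuug
From mir-103-1 to mir-103-2 the change is G1A, and from mir-103-2 to mir-107 it is C16T in DNA letters.

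The hairpins are shown because the copies of mir-103 can be told apart only outside the mature arm. Capitals mark the mature 3p arm.
Mir103-1 hairpin: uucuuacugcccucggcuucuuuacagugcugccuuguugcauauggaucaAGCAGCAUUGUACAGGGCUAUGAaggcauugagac
Mir103-2 hairpin: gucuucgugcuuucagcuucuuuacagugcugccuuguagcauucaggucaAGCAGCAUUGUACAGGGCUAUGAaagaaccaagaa
Mir107 hairpin: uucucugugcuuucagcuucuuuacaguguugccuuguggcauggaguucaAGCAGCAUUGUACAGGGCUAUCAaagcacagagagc
On GRCm38, Mir103-1 lies at chr11:35782396-35782481 on the plus strand, in an intron of Pank3. Mir103-2 lies at chr2:131288052-131288137 on the plus strand, in an intron of Pank2. Mir107 lies at chr19:34820687-34820773 on the minus strand, in an intron of Pank1. By the GENCODE annotation, each gene runs on the strand of its host and no exon of the host overlapped it.

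Depth ranged from 1933375 counted reads (Keluoxin replicate 5) to 7892147 (model replicate 3). The first principal component of the normalized levels held 51.0% of the variance, and on it model replicate 1 stood among the Keluoxin libraries. All 5 neural retina markers were seen, with a summed level of 455020 to 476430 RPM (reads scaled to the counted reads of the library) in model and 351497 to 460558 in Keluoxin. Muscle markers (3 of 3 seen) summed to 303 to 403 RPM in model and 321 to 2453 in Keluoxin. Erythroid markers (3 of 3) gave 50.4 to 75.1 and 56.9 to 705, mural markers (2 of 2) 2434 to 3659 and 3325 to 9126, and endothelial markers (2 of 2) 1520 to 1870 and 1084 to 1574. Pigment epithelium and ciliary body markers (2 of 2) gave 8693 to 11752 and 10639 to 13270, leukocyte markers (4 of 4) 55.5 to 78.3 and 50.2 to 93.0, and the liver marker miR-122-5p 1.21 to 4.94 and 3.10 to 40.3. The part of these cell types in the results below was not tested.

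miR-103-3p was lower in the Keluoxin libraries, and no change was called for miR-107-3p. Reads that match both miRNAs were first split equally between them. Levels are CPM, that is, reads scaled to a common library size, which the TMM method of edgeR adjusts for composition. In the model libraries, in order of replicate, miR-103-3p stood at 3285, 3506, 5102, 4595, 5034 and 5140 CPM. In the Keluoxin libraries it stood at 2311, 3106, 3527, 2211, 3170 and 2512 CPM. Of the 6 Keluoxin libraries, 5 lay below every model library, and replicate 3 overlapped model replicates 1 and 2. The means were 4444 ± 838 and 2806 ± 535 CPM (SD, n = 6 each), a 1.58-fold ratio. miR-103-3p fell by 0.66 on the log2 scale (SE 0.16, edgeR quasi-likelihood test, adjusted p = 0.0174 over 787 arms).

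Across all arms, 138 of 787, or 17.5%, were called in either direction, with 73, or 9.28%, lower and 65, or 8.26%, higher. Of the member arms, 1 of the 2 tested was called. miR-103-3p ranked 33 and miR-107-3p 98 by level among the 511 annotated arms tested. Without model replicate 1, the library that stood among the Keluoxin ones, the log2 change of miR-103-3p was -0.74 (edgeR, adjusted p = 0.00429). Without Keluoxin replicate 6 it was -0.56 (edgeR, adjusted p = 0.0475). If whole retina was sampled, as the labels say, fewer cells of a type and less miRNA per cell cannot be told apart. The extraction protocol names exosomes instead, and which of these the levels stand for is not settled.

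miR-107-3p, with the shared reads split equally, stood at 326, 336, 442, 362, 397 and 434 CPM in model, in order of replicate. In Keluoxin it stood at 325, 380.1, 380.4, 380.4, 345 and 369 CPM. The groups overlapped, but the model libraries at 442, 397 and 434 CPM stood above every Keluoxin library. The means were 383 ± 49.4 and 363 ± 23.3 CPM (SD, n = 6 each), a log2 difference of -0.07 (SE 0.11, edgeR, adjusted p = 0.616). The sign turned with the way shared reads were counted. With the equal split kept, it also turned with scaling to total reads, to a log2 difference of 0.18. With reads of miR-107 alone, the level was 116 ± 21.5 CPM in model and 123 ± 12.7 in Keluoxin, a log2 difference of 0.09 (SE 0.14, edgeR, adjusted p = 0.656). Most of the level credited to miR-107-3p by an equal split therefore came from reads that match miR-103 as well. As its sign depended on the counting and on the scaling, no direction is given for miR-107-3p.

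Reads of miR-103 alone gave 4179 ± 808 CPM in model and 2567 ± 539 in Keluoxin (n = 6 each, SD), a log2 change of -0.70 (SE 0.17, edgeR, adjusted p = 0.0173). With all 3p tags in 1 row, the family stood at 4832 ± 886 and 3165 ± 531 CPM, a log2 change of -0.61 (SE 0.15, edgeR, adjusted p = 0.0192). The decrease of miR-103-3p thus passed the test in all 3 ways of counting. Since miR-103 supplies most of these reads, the joint row mostly repeats it.

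**Figure D1:**
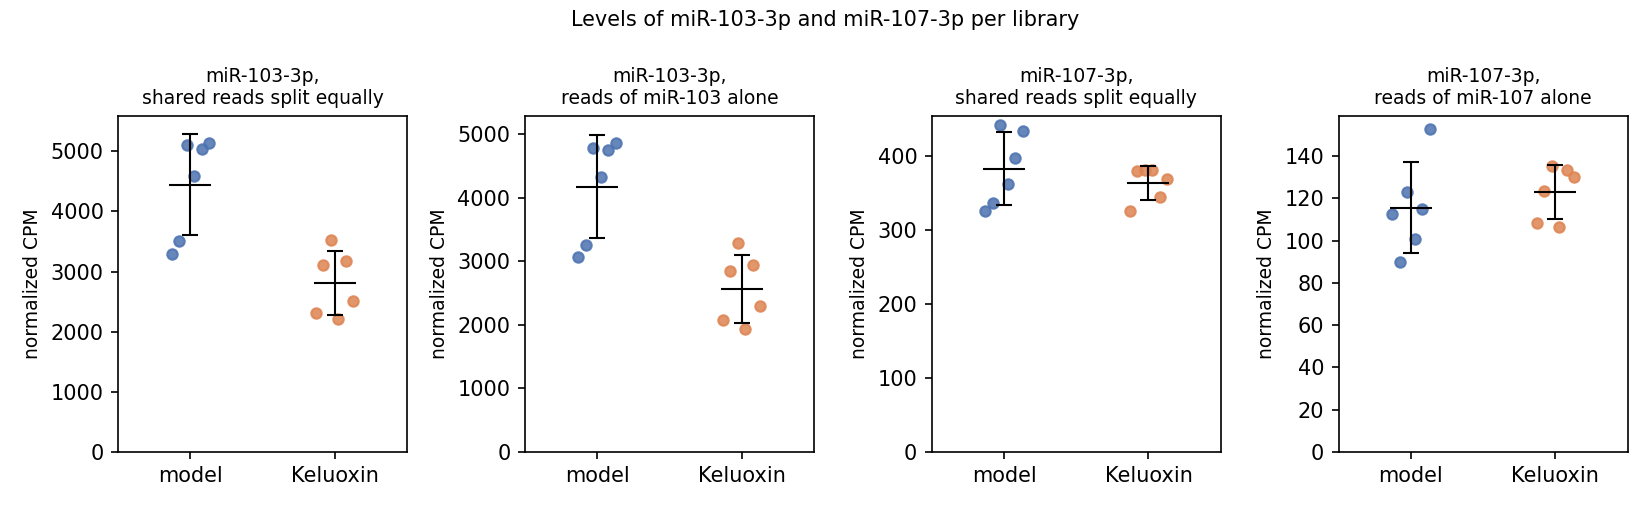
Normalized CPM (y axis) of miR-103-3p and miR-107-3p in each library, with shared reads split equally or left out; points are libraries, bars the mean and SD of 6. For miR-103-3p, 5 of the 6 Keluoxin libraries lie below every model library, while for miR-107-3p the groups overlap in both panels.

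The balance of the miRNAs was then read within each library, where scaling plays no part. Over the 12 libraries, 209473 of the 3p reads matched miR-103 alone, 7322 matched miR-107 alone and 32361, or 12.99%, matched both. Reads of miR-107 alone numbered 270 to 853 in a library, which limits its precision. The share of miR-103 among reads that match only 1 of the miRNAs was 96.5, 97.3, 97.5, 97.7, 97.6 and 97.0% in model, in order of replicate. It was 95.0, 95.8, 96.0, 94.8, 95.7 and 94.6% in Keluoxin. All 6 Keluoxin libraries lay below all model libraries. The means were 97.3 ± 0.478 and 95.3 ± 0.589% (SD, n = 6 each; exact two-sided permutation test, p = 0.00216, the smallest that all assignments of the labels can give; adjusted p = 0.00433 over 14 measures). The share of reads with the miR-103 base thus fell. A miR-103 read that carries a C at position 22 counts here as miR-107, and C as another last base rose in many arms, as given below. The part of such end changes in this share was not tested.

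The share of 3p reads that match both miRNAs rose. It was 11.8, 12.8, 11.5, 10.5, 10.4 and 10.1% in model and 16.3, 14.7, 12.6, 21.2, 11.995 and 16.7% in Keluoxin, in order of replicate. Keluoxin replicate 4 was the highest, and 4 of 6 Keluoxin libraries lay above every model library. The means were 11.2 ± 1.04 and 15.6 ± 3.34% (SD, n = 6 each), and the exact permutation test gave an adjusted p of 0.0135. Reads of 21 nt or shorter, which cannot reach base 22, rose from 5.46 ± 0.976 to 9.28 ± 3.01% of 3p reads (SD of 6 libraries each; exact permutation test, adjusted p = 0.0114). Here too Keluoxin replicate 4, at 14.8%, was the highest. Without that library the share of reads that match both was 3.27 points higher in Keluoxin, against 4.39 with it (exact permutation test, p = 0.0108 and 0.00866).

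**Figure D2:**
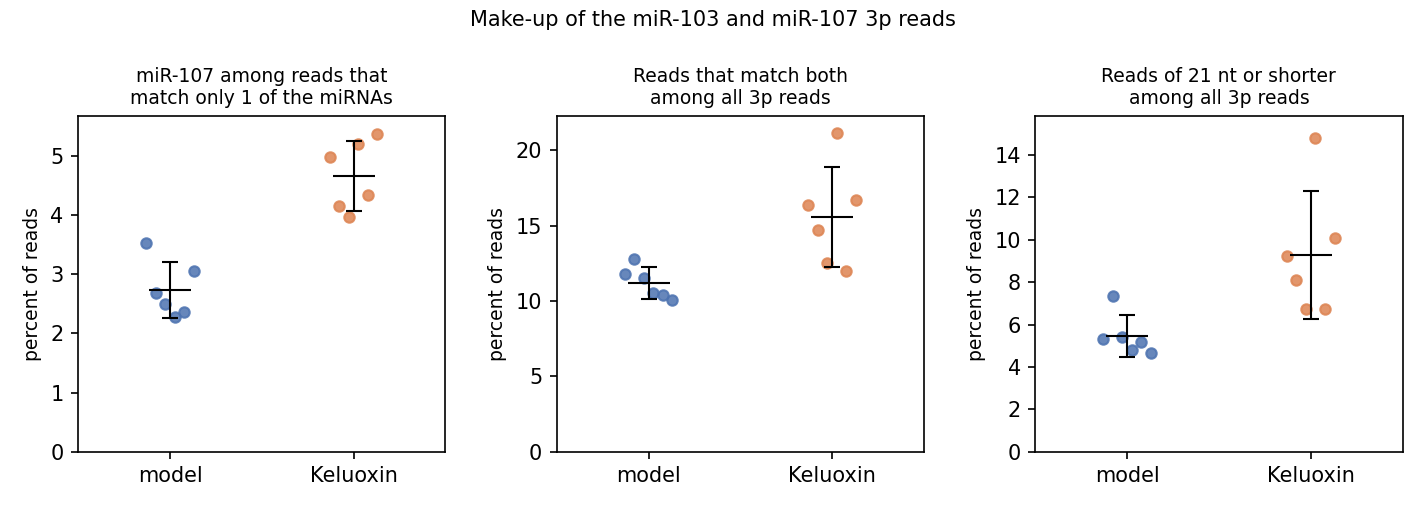
Percent of reads (y axis) in each library: miR-107 among reads that match only 1 of the miRNAs, reads that match both among all 3p reads, and reads of 21 nt or shorter among all 3p reads; points are libraries, bars the mean and SD of 6. In the first panel every Keluoxin library lies above every model library, and in the others 4 of 6 do.

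The leading read forms are shown because they carry these shares. Reads are in DNA letters as deposited, and capitals mark the bases from position 22 on. The 5 most frequent forms of miR-103 alone all had the annotated start, and differ in their last bases.
miR-103 form 1: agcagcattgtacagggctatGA
miR-103 form 2: agcagcattgtacagggctatG
miR-103 form 3: agcagcattgtacagggctatGT
miR-103 form 4: agcagcattgtacagggctatGG
miR-103 form 5: agcagcattgtacagggctatGAT
Form 1, the annotated sequence, held 102758 reads, 49.1% of those of miR-103 alone, and made up 45.7 ± 2.79% of all 3p reads in model and 34.0 ± 4.08% in Keluoxin (n = 6 each, SD). Form 2, a base shorter, went from 14.5 ± 2.12 to 11.9 ± 1.5%. Forms 3 and 4, in which a U or a G stands in place of the last A, went from 7.76 ± 0.436 to 10.3 ± 0.774% and from 3.89 ± 0.552 to 6.24 ± 1.93%. Form 5, with an added U, went from 2.51 ± 0.283 to 2.80 ± 0.449%. Forms 1 and 2 held a smaller part of the reads in Keluoxin, and the forms with another last base a larger one. These shares of single forms are descriptions without a test.

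The leading forms of miR-107 alone have the same kinds of end. Their order differs, and the annotated form and the one a base shorter held larger shares of all 3p reads in Keluoxin. The leading 4 are shown.
miR-107 form 1: agcagcattgtacagggctatC
miR-107 form 2: agcagcattgtacagggctatCA
miR-107 form 3: agcagcattgtacagggctatCT
miR-107 form 4: agcagcattgtacagggctatCG
Form 1 held 2533 reads and form 2, the annotated sequence, 2155, so the leading miR-107 read was a base shorter than the annotated one. The fifth form was a 22-nt read of 260 reads that lacks the U of position 21. As shares of all 3p reads, form 1 went from 0.940 ± 0.210 to 1.23 ± 0.250% (SD, n = 6 each). Form 2 went from 0.798 ± 0.138 to 1.02 ± 0.0598%. The forms with a changed base held larger shares in Keluoxin too. Form 3 went from 0.177 ± 0.0328 to 0.399 ± 0.0594% and form 4 from 0.0965 ± 0.0152 to 0.225 ± 0.0877%. The fifth form went from 0.0495 ± 0.0111 to 0.186 ± 0.0273%.

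Among reads that match both miRNAs, the leading form ended in an A that neither precursor has at base 22.
shared form 1: agcagcattgtacagggctatA
shared form 2: agcagcattgtacagggctat
shared form 3: agcagcattgtacagggctatT
Form 1 held 9631 reads, form 2 7601 and form 3 2983. The fourth was a 21-nt read with a C as its last base (1607 reads) and the fifth a 23-nt read with a U at position 22 (1396 reads). Form 2 went from 2.52 ± 0.391 to 3.72 ± 1.21% of 3p reads and form 3 from 0.997 ± 0.128 to 1.57 ± 0.185%, while form 1 stood at 3.85 ± 0.514 and 3.80 ± 0.646% (SD, n = 6 each).

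Bases along the 23-nt read were compared next, since a G-to-C misread at position 22 turns a miR-103 read into a miR-107 read. At each position, the 23-nt reads that equal miR-103-3p at all other positions were compared by the base they carry there. C stood at position 22 in 1.69 ± 0.341% in model and 2.84 ± 0.256% in Keluoxin (SD of 6 libraries each; exact permutation test, adjusted p = 0.00433). All 6 Keluoxin libraries lay above all model libraries. At the other G positions of the same reads, G-to-C stood at 0.102 ± 0.0149% and 0.133 ± 0.0246% on average (exact permutation test, n = 6 each, adjusted p = 0.0331). The level at position 22 less this mean was 1.58 ± 0.340 and 2.71 ± 0.236% (exact permutation test, n = 6 each, adjusted p = 0.00433). The mean taken off is small beside that level, so this test nearly repeats the first and is no separate support. The other G positions all lie nearer the 5′ end, so the difference does not allow for changes particular to the 3′ end. At position 22 itself, the other substitutions stood closer to the level of C: G22A at 1.07 ± 0.295 and 1.45 ± 0.235%, and G22T at 1.21 ± 0.262 and 1.44 ± 0.558% (SD, n = 6 each). How many of the reads with C at position 22 came from miR-103 was not tested.

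Beyond position 1, substitutions were most frequent at the 3′ end. Over positions 2 to 20, the group means per position lay between 0.178 and 0.601% in model and between 0.213 and 0.906% in Keluoxin. Their mean was 0.381 ± 0.0279% in model and 0.450 ± 0.0913% in Keluoxin (exact permutation test, n = 6 each, adjusted p = 0.152). The seed bases of these reads lie in this range. At its end the groups did not overlap: position 19 stood at 0.247 to 0.325% in model and 0.479 to 0.695% in Keluoxin, and position 20 at 0.400 to 0.559% and 0.760 to 1.13%. Any other base at position 22 stood at 3.06 to 4.89 and 4.96 to 7.24%, also without overlap. That value includes C, with which the read equals miR-107-3p. The groups overlapped for G22A, at 0.599 to 1.53% in model and 1.11 to 1.79% in Keluoxin. They also overlapped for G22T, at 0.699 to 1.45% and 1.12 to 2.57%. For any other base, positions 19, 20 and 22 were not tested singly. At position 1 the substituted share was 2.34 ± 0.0723 and 2.81 ± 1.64% (exact permutation test, n = 6 each, adjusted p = 0.608), with a Keluoxin range of 1.03 to 5.55%.

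At position 21, substitutions rose in Keluoxin. The share was 1.15, 0.706, 0.824, 0.843, 0.987 and 1.09% in model and 2.36, 2.79, 3.53, 6.12, 3.03 and 3.84% in Keluoxin, in order of replicate. All 6 Keluoxin libraries lay above all model libraries, and replicate 4 was again the highest. The means were 0.933 ± 0.170 and 3.61 ± 1.34% (SD of 6 libraries each; exact permutation test, adjusted p = 0.00433). The leading kind in Keluoxin was T21G, at 0.331 ± 0.105% in model and 2.34 ± 0.724% in Keluoxin, while T21C stood at 0.272 ± 0.0561 and 0.372 ± 0.0836%.

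**Figure D3:**
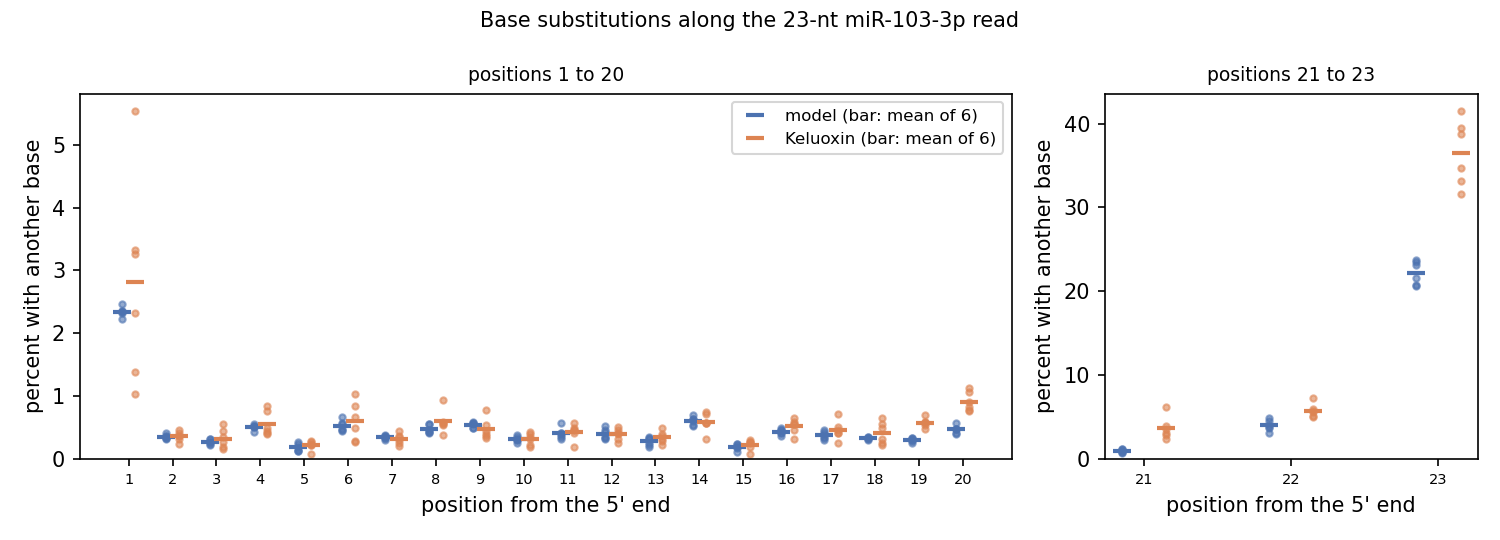
Percent of 23-nt miR-103-3p reads with another base (y axis) at each position from the 5′ end (x axis), with positions 21 to 23 on their own scale; points are libraries and bars the mean of 6. The group means at positions 2 to 20 reach at most 0.906%, and every Keluoxin library lies above every model library at each position from 19 to 23.

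Another last base was more frequent in Keluoxin, both in reads with G and in reads with C at position 22. Reads with that C are called miR-107 reads here, though how many came from miR-103 was not tested. In 23-nt reads with the G of miR-103, a base other than A at position 23 stood at 23.5, 23.2, 21.6, 20.6, 20.7 and 23.7% in model and at 39.5, 41.6, 34.7, 31.6, 33.1 and 38.7% in Keluoxin, in order of replicate. The groups did not overlap. The means were 22.2 ± 1.43 and 36.5 ± 3.97% (SD of 6 libraries each; exact permutation test, adjusted p = 0.00433). In 23-nt reads with the C of miR-107, the share was 25.4, 31.2, 26.9, 24.9, 27.8 and 29.7% in model and 46.6, 41.9, 42.3, 36.7, 32.8 and 46.3% in Keluoxin. These groups did not overlap either, with means of 27.7 ± 2.46 and 41.1 ± 5.44% (SD of 6 libraries each; exact permutation test, adjusted p = 0.00433). A library held 119 to 402 such miR-107 reads, so single values for miR-107 carry more counting error than those for miR-103.

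By base, U was the most frequent substitute in both. In miR-103 reads of 23 nt it went from 13.3 ± 1.11 to 19.4 ± 1.66%, G from 6.62 ± 0.797 to 11.6 ± 3.36% and C from 2.33 ± 0.537 to 5.55 ± 1.18% (SD, n = 6 each). In miR-107 reads, U went from 16.0 ± 1.14 to 23.02 ± 2.75%, G from 8.83 ± 1.39 to 12.9 ± 4.81% and C from 2.81 ± 0.681 to 5.17 ± 1.37%. For U, all 6 Keluoxin libraries lay above all model libraries in both kinds of read. Among 22-nt reads, U as the last base rose from 4.96 ± 0.729 to 8.52 ± 0.914% (SD of 6 libraries each; exact permutation test, adjusted p = 0.00433), while A stood at 19.1 ± 1.93 and 20.5 ± 1.91% (exact permutation test, n = 6 each, adjusted p = 0.268). Of the 22-nt reads that end in G or C, C, the base of miR-107, rose from 6.15 ± 1.42 to 9.45 ± 1.98% (SD of 6 libraries each; exact permutation test, adjusted p = 0.0152).

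Over all lengths, the last base of a family 3p read differed from the precursor in 24.2, 23.2, 23.2, 22.9, 21.99 and 24.2% of reads in model and in 34.8, 35.7, 33.2, 26.8, 31.2 and 35.5% in Keluoxin, in order of replicate. The groups did not overlap, and Keluoxin replicate 4 was the nearest to model. The share rose by 9.57 points (SE 1.53, limma, adjusted p = 0.00100 over the 258 annotated arms that had 50 or more reads in each library). Many arms moved the same way. Of 258, 95 or 36.8% were called, 92 or 35.7% rose, 3 or 1.16% fell, and the median difference over all arms was 4.05 points. The number of arms called was 61 without Keluoxin replicate 6, 62 without Keluoxin replicate 1 and 169 without Keluoxin replicate 4. A larger difference than the family's was seen in 13 of the 258 arms. The rise itself was thus shared with many arms.

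The kinds of last base stood differently against all arms. A different last base of U rose in the family by 3.82 points (SE 0.489, limma, adjusted p = 0.000301), where 46 arms, or 17.8%, rose and 38, or 14.7%, fell, with a median of 0.02 points. G rose by 2.98 points (SE 0.869, limma, adjusted p = 0.0139) and C by 2.66 points (SE 0.472, limma, adjusted p = 0.00192). For G, 162 arms, or 62.8%, rose and none fell, with a median of 2.37 points, and for C 188 arms, or 72.9%, rose and none fell, with a median of 3.00 points. The family's G and C lay close to those medians. For U the family lay well above the median, with a larger difference in 20 of 258 arms. A differed by 0.11 points (SE 0.407, limma, adjusted p = 0.911), where 57 arms, or 22.1%, fell, 1, or 0.388%, rose and the median was -1.22 points (98 arms called without Keluoxin replicate 1, against 58). The family's hairpins all have A at bases 23 and 24 of the 3p arm. From the annotated start, an A that ends a read of 23 or 24 nt therefore never counts as changed.

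**Figure D4:**
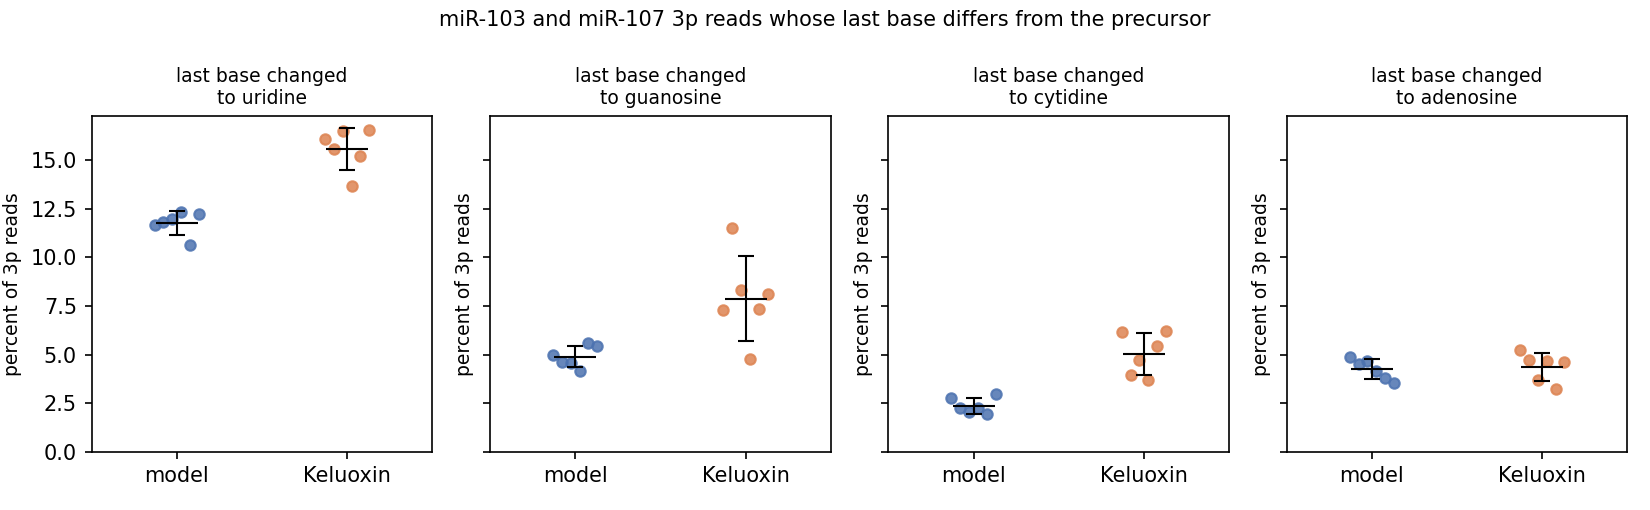
Percent of the family's 3p reads (y axis) whose last base differs from the precursor, by the base read, in each library; points are libraries, bars the mean and SD of 6. Every Keluoxin library lies above every model library for U and C, 5 of 6 do for G, and the groups overlap for A.

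**Figure D5:**
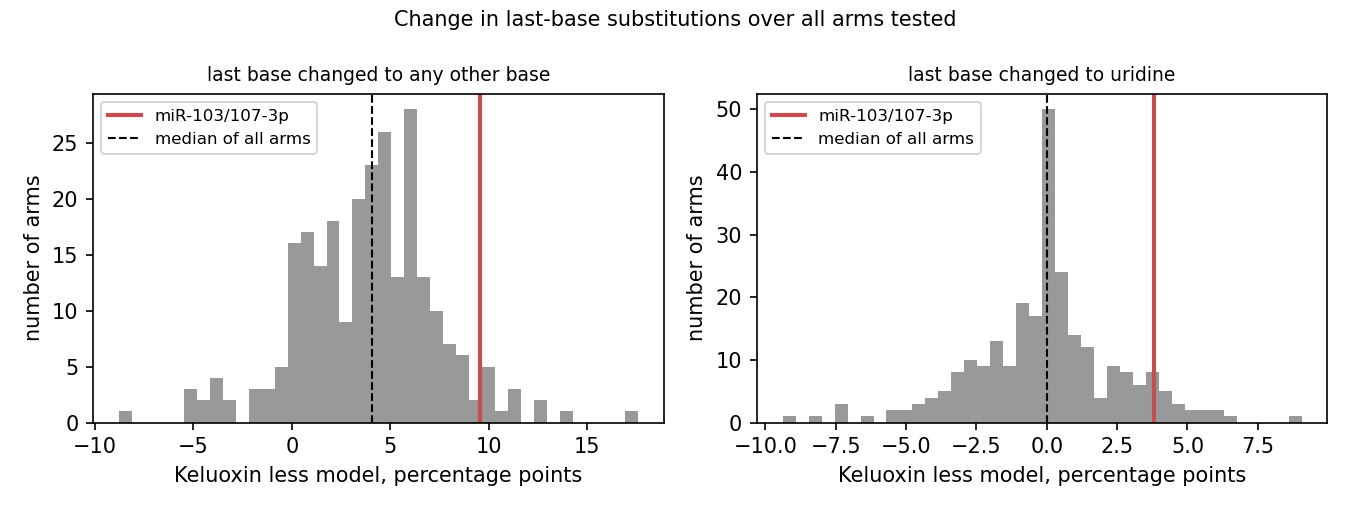
Number of arms (y axis) by the Keluoxin less model difference in percentage points (x axis) of reads with another last base, for any base and for U; the red line marks the family and the dashed line the median of all 258 arms. The family lies at 9.57 points against a median of 4.05 for any base, and at 3.82 points against 0.02 for U.

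A substitution before the last base rose too, by 2.45 points in the family (SE 0.853, limma, adjusted p = 0.0197). Of 258 arms, 71.3% were called: it rose in 182, or 70.5%, and fell in 2, or 0.775%, with a median of 2.84 points, so the family was near the middle of all arms.

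No difference in the start or the mean length of the reads passed the test. Reads that begin at the annotated base, position 52 of the precursor, made up 99.5 ± 0.132% in model and 99.5 ± 0.334% in Keluoxin (n = 6 each, SD). Reads that begin 2 bases later, and so have another seed, made up 0.297 ± 0.0208 and 0.285 ± 0.126%. The mean start differed by 0.00075 nt (SE 0.0024, limma, adjusted p = 0.921). Over all 258 arms, 0 shifts, or 0.0%, were called.

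Mean length was 22.7 ± 0.0609 nt in model and 22.6 ± 0.115 nt in Keluoxin (n = 6 each, SD), a difference of -0.09 nt (SE 0.0521, limma, adjusted p = 0.296; 10 of 258 arms, or 3.88%, were called, 2 of them, or 0.775%, as shorter). Reads of 23 nt made up 66.3 ± 3.34 and 62.0 ± 4.76%, reads of 22 nt 22.5 ± 2.75 and 22.4 ± 2.92%, and reads of 21 nt 4.11 ± 0.495 and 6.76 ± 2.03%. The count of arms called rests on single libraries: it ran from 1 to 59 when a library was left out, and was 59 without Keluoxin replicate 4, where the family's difference was -0.05 nt. The test on reads of 21 nt or shorter, given above, passed where that on the mean did not.

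The 5p arms were nearly silent. mir-103-1 had 0 reads there, mir-103-2 had 31 reads in 6 libraries and mir-107 had 8 in 3 libraries, against 249156 reads on the 3p arms. The leading read of mir-103-2 and 1 of 4 equally rare reads of mir-107 are shown because they differ at their start or end from the annotated 5p miRNAs, and capitals are not used.
mir-103-2 5p read: agcttctttacagtgctgccttgt
mir-107 5p read: cagcttctttacagtgttgcctt
The mir-103-2 read held 13 reads and is a base longer at its 3′ end than RefSeq gives. The mir-107 sequence held 2 reads and begins a base earlier, which shifts its seed. The other 3 sequences, also of 2 reads each, were 15 nt long and run past the end of the precursor, so the one shown was chosen after they were seen. The ratio of the arms could not be tested, since no member reached 10 reads on its 5p arm in 6 libraries.

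Reads that reach base 25 can name the copy of mir-103. The leading sequences are shown with the bases past the mature arm in capitals, of which the last differs between the copies.
mir-103-1 read: agcagcattgtacagggctatgaAG
mir-103-2 read: agcagcattgtacagggctatgaAA
The 3p reads that match mir-103-1 alone numbered 381, or 11 to 58 a library, and those that match mir-103-2 alone 802, or 22 to 152. Reads of the form shown, without any mismatch, numbered 111 for mir-103-1 and 281 for mir-103-2. Reads that match either copy alone were thus seen in all 12 libraries. In model the counts were 199 for mir-103-1 and 516 for mir-103-2, and in Keluoxin 182 and 286. These counts are not scaled to depth and were not tested. An added A cannot be told apart from the templated A of mir-103-2, so the larger number for that copy includes any such additions. An added G likewise cannot be told apart from the templated G of mir-103-1, so its number includes any of those.

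The annotated arms whose levels ran most like the family's, by Pearson's r of log2 CPM over the 12 libraries among 177 annotated arms of at least 100 CPM, were miR-532-5p (r = 0.957), miR-379-5p (0.948), miR-378a-3p (0.932), miR-140-3p (0.929) and miR-203-3p (0.923). The median r over the 177 arms was 0.437, and all these values share libraries and scaling. They also include the difference between the groups, so arms picked this way tend to share the family's decrease. Their group tests below are descriptions of the arms picked and no separate support. Of the 5, miR-379-5p, of the Dlk1-Dio3 cluster, fell by 0.82 (SE 0.136, edgeR, adjusted p = 0.00475) and miR-378a-3p, encoded in the Ppargc1b gene, fell by 0.82 on the log2 scale (SE 0.154, edgeR, adjusted p = 0.00657). miR-140-3p fell by 0.67 and miR-203-3p by 0.90, whereas miR-532-5p, at -0.33 (SE 0.129, edgeR, adjusted p = 0.0952), did not pass the test.

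Of a list of 36 miRNA arms known from insulin signalling, lipid or glucose metabolism, 34 were tested, and 2 rose and 5 fell. Over all arms, 8.26% rose and 9.28% fell, so the list was called about as often as arms in general. The list's median log2 difference was 0.08, beside -0.04 over all 787 arms. The 5 that fell were miR-378a-3p, the endothelial miR-126a-3p (-0.70, edgeR, adjusted p = 0.00431), miR-375-3p of pancreatic islets (-0.46), miR-24-3p (-0.34) and miR-27b-3p (-0.28). miR-27a-3p rose by 0.34. The liver miRNA miR-122-5p rose by 2.46, from 2.61 ± 1.40 to 14.8 ± 14.025 CPM (SD, n = 6 each). The most abundant members, miR-96-5p, let-7g-5p and let-7f-5p, were not called. miR-103-3p, at 0.66 lower on the log2 scale, lay between miR-126a-3p and miR-375-3p in size of decrease.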

How the data were processed

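Small RNA libraries of 12 retina samples, 6 model and 6 Keluoxin, were prepared with a NEBNext small RNA kit (1 µg of total RNA each, inserts of 15 to 35 nt), per the labels' protocols. Novoalign, Bowtie, cutadapt and bcl2fastq stand in the submitters' processing notes, without versions. Neither a genome build nor a miRBase release is named in the sources used here. The deposited tables, 1 per sample, hold distinct reads with their counts, whole and not normalized, and their precursors, per the file headers; reads had at least 2 copies and 15 to 51 nt. The authors divided the count of a read by the number of precursors it matches and kept the undivided number in its name. Lengths, positions and numbers of mismatches were deposited as such, per the file headers, and 5 is added to every position.

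Each undivided read entered once per arm, 5p or 3p by its side of the precursor's middle. Copies that share at least 50% of the smaller arm's reads were joined, reads shared by different miRNAs were split equally, and annotated precursors took the reads they share with predicted ones. Tests on levels used edgeR 4.0.16 with R 4.3.3 (TMM, filter on low counts, quasi-likelihood test, Benjamini-Hochberg over 787 arms, threshold 0.05), and read ends, starts and lengths with limma 3.58.1 over 258 annotated arms that had 50 or more reads in each library. Measures within the family were tested by exact permutation (two-sided, all assignments of the labels), adjusted over 14 measures. DESeq2 1.42.0 was an alternative, beside other scalings, filters, read sets, a replicate block and leaving out each library. On simulated counts for this comparison, edgeR recovered 13.4% of arms changed 1.5-fold, 35.8% changed 2-fold and 81.8% changed 4-fold over 787 arms, with 4 unchanged arms called. On simulated end shares, limma recovered 93.8% of arms shifted by 10 points over 258 arms, with 3 unchanged arms called.

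The members and lists were chosen with earlier results of these data known. The text names all member arms, the 5 leading reads of each 3p class and the leading read of each 5p arm, the 5 annotated arms of at least 100 CPM most like the family by Pearson's r, and the called and 3 most abundant arms of the metabolic list. Pandas 2.3.3, NumPy 2.4.6 and SciPy 1.17.1 were used in Python 3.11.15. The strain label's number before BL differs between samples and was left unused. Replicate numbers share no stated animal, litter or day, and correlations of same-numbered libraries ran from 0.03 to 0.24, so they were not used as pairs. No libraries of the same group were copies of each other: the smallest chi-square per degree of freedom over the 30 pairs within groups was 71.9. Pairs across the groups were not compared in this way.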

Additional observations from a re-analysis of the deposited data

Results flagged for a closer look

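Of 54 groups of 6 libraries examined for a value standing apart from the rest, 5 held one, and chance gives about 1 in 20. In model replicate 2, reads of 21 nt or shorter made up 7.36% of 3p reads, against 4.67 to 5.40% in the other model libraries. The same library had a mean G-to-C share of 0.132% at the other G positions of the 23-nt read, against 0.0897 to 0.100%. U ended 6.40% of the 22-nt reads in model replicate 6, against 4.40 to 4.90% in the others of its group. In Keluoxin replicate 4 it ended 6.78%, below the 8.44 to 9.21% of the others. The mean start of the 3p reads of that library was at position 52.02, against 52.00 to 52.01. Both values of U kept the groups apart, since all Keluoxin libraries lay above all model libraries with these libraries in.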

How the results depend on the processing

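The log2 change of miR-103-3p kept its direction and passed the test in all 26 alternatives, from -0.84 to -0.42. Among these was the joint row, which counts miR-107-3p as well. miR-107-3p passed in none of 25, and its sign changed from -0.07 to 0.18 with scaling to total reads, 0.11 with reads without mismatch, 0.0094 with reads of 18 to 26 nt, 0.087 with annotated precursors only, 0.021 with the authors' divided counts and 0.088 with reads of 1 miRNA only. Of the alternatives chosen after seeing the data, splitting shared reads by the resolved share gave 0.16, and letting predicted precursors share reads equally gave 0.015. With 1 library left out, miR-103-3p ranged from -0.74 to -0.56 and miR-107-3p from -0.12 to -0.01. The arms called numbered 138 (65 higher and 73 lower, median log2 difference -0.04). They numbered 225 with DESeq2 and 68 with annotated precursors only. With 1 library left out they ranged from 66 (without model replicate 4) to 244 (without model replicate 1), with 82 without model replicate 3 and 91 without Keluoxin replicate 6; the cause was not tested. The split was 68 higher and 69 lower with RLE factors, 63 and 92 with upper-quartile factors (median -0.21) and 80 and 23 with total reads (median 0.21). miR-103-3p passed under each of these. The difference in mean start became -0.0014 nt without Keluoxin replicate 4 (highest 0.0018), and that of A as another last base -0.039 without model replicate 6 and -0.067 without Keluoxin replicate 1 (highest 0.33); the cause was not tested.

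The replicate numbers are shared only as numbers, and 1 of 6 model libraries was most like the Keluoxin library of its own number. With a replicate block, miR-103-3p gave -0.66 (edgeR, adjusted p = 0.0280), miR-107-3p -0.07 (adjusted p = 0.670), and 123 arms were called. Under the replicate block the miR-103 share differed by -1.93 points and the share matching both by 4.39 points, each at the smallest exact p of 0.0312 that 6 pairs allow. Of the other results fitted with the block, which leave out 12 of the 14 permutation measures, none changed its call: the rise in other last bases was 9.57 points (limma, adjusted p = 0.00400), mean length differed by -0.09 nt and mean start by 0.00075 nt. The arm ratio was not run, with or without the block, since no member reached the minimum. Another last base, its U, G and C, and substitutions before the last base passed in all 14 alternatives each. Depth limits miR-107 and the 5p arms most.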

Other observations

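Of the family's 3p reads, 96.7% also matched 1 precursor predicted by the submitters, 67 nt long, whose first 35 bases equal the 3′ end of mir-103-1. Almost all reads of that predicted precursor (99.995%) matched a family precursor as well. Counting it as a separate miRNA lowers the level credited to miR-103-3p, and the log2 change was then -0.58 (edgeR, adjusted p = 0.0221), against -0.66 when the annotated precursors take these reads. That alternative was chosen after seeing the data.

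The kinds of substitution at position 21 of the 23-nt miR-103-3p read were uneven. T21A stood at 0.330 ± 0.0789% in model and 0.898 ± 0.644% in Keluoxin, and T21G at 0.331 ± 0.105 and 2.34 ± 0.724% (SD, n = 6 each). At position 1 the leading kind was A1C, at 1.64 ± 0.0952 and 1.73 ± 1.14%, with the larger spread in Keluoxin. These are descriptions without a test.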
